A study of Drosophila melanogaster with 21 samples.

Results

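Most of the genes described here encode proteins of the cytoplasmic ribosome of *Drosophila melanogaster*, while the products of *RpL24-like* and *RpLP0-like* act in ribosome assembly. All were chosen by name alone, as every counted gene whose FlyBase symbol starts with RpL (large 60S subunit) or RpS (small 40S subunit). The mitochondrial ribosomal protein genes, whose symbols start with mRpL or mRpS, were left out. This gave 87 of the 17559 genes counted, 51 of the 60S and 36 of the 40S subunit, of which 22 carry a paralog name. *RpL19*, *RpL27A*, *RpL31*, *RpS10b* and *RpS12* were not matched to a gene identifier and were not analysed here.

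Each ribosome holds a single copy of nearly every one of these proteins, so cells make them in near-equal amounts. Their genes are among the most strongly transcribed in growing tissue, and in flies many of them cause the dominant Minute phenotype of slow growth and thin bristles when a single copy is lost. Most are encoded by a single gene in flies, and a few have a second copy that is active mainly in the germline.

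RNA was measured in whole heads of F1 females in which an RNA interference line from the Vienna Drosophila Resource Center (VDRC) was driven in all neurons by *Elav-GAL4*. The driver is present in all 7 groups, controls included, and the knockdown is neuronal while the RNA comes from every tissue of the head. The groups were knockdown of *dlg1* (line 41136, GD collection), of *Fsn* (line 26577, GD), of *Cbp20* (line 107112, KK collection), of *Cbp20* with *dlg1* and of *Cbp20* with *Fsn*, and the driver crossed to the GD control (Control GD) or to the KK control line 60100 (Control KK). These genes are fly homologs of genes in a human deletion region. Each knockdown was represented by 1 line per target. The pairwise knockdowns carry a KK and a GD line, and were compared with Control KK. Each group had 3 biological replicates of pooled heads, giving 21 libraries, and the age of the flies is not given in the sources used here.

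Gene counts ranged from 17712938 to 28759171 per library. *Cbp20* was at 5.1 to 6.6 CPM (counts scaled to a common library size with TMM factors) in the 9 libraries with its knockdown and at 11.7 to 19.1 in the other libraries. *Fsn* was at 16.3 to 20.2 CPM in the 6 libraries with its knockdown and at 24.03 to 31.5 in the others. *dlg1* was at 276 to 371 CPM in the 6 libraries with its knockdown, against 388 to 416 in the control libraries. The *Fsn* libraries, at 257, 367 and 351 CPM, and the *Cbp20/Fsn* libraries, at 360 to 395 CPM, do not target *dlg1*, yet its level there overlapped with the knockdown range. In the *Cbp20* libraries *dlg1* was at 434 to 441 CPM. In whole heads, lower counts can come from less RNA per cell or from fewer cells of a type, and these cannot be told apart.

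The members took between 4.73% and 9.26% of the gene counts of a library. In Control GD the mean share was 5.59% ± 0.108 (SD, n = 3). Knockdown of *dlg1* left it at 5.58% ± 0.421 (SD, n = 3). With *Fsn* knockdown it was 7.70% ± 1.44 (SD, n = 3), where replicate 1 stood at 9.26% and replicate 2 at 6.44%. It was 6.42% ± 0.103 (SD, n = 3) in Control KK and 4.88% ± 0.132 (SD, n = 3) with *Cbp20* knockdown. The pairwise groups were at 6.26% ± 0.372 (SD, n = 3) for *Cbp20/dlg1* and 6.14% ± 0.268 (SD, n = 3) for *Cbp20/Fsn*. The *Fsn* and *Cbp20* libraries therefore did not overlap with their own controls, in opposite directions, whereas the *dlg1* libraries overlapped with Control GD. The sequencing batches of a library differed by at most 0.142 percentage points in this share.

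**Figure D1:**
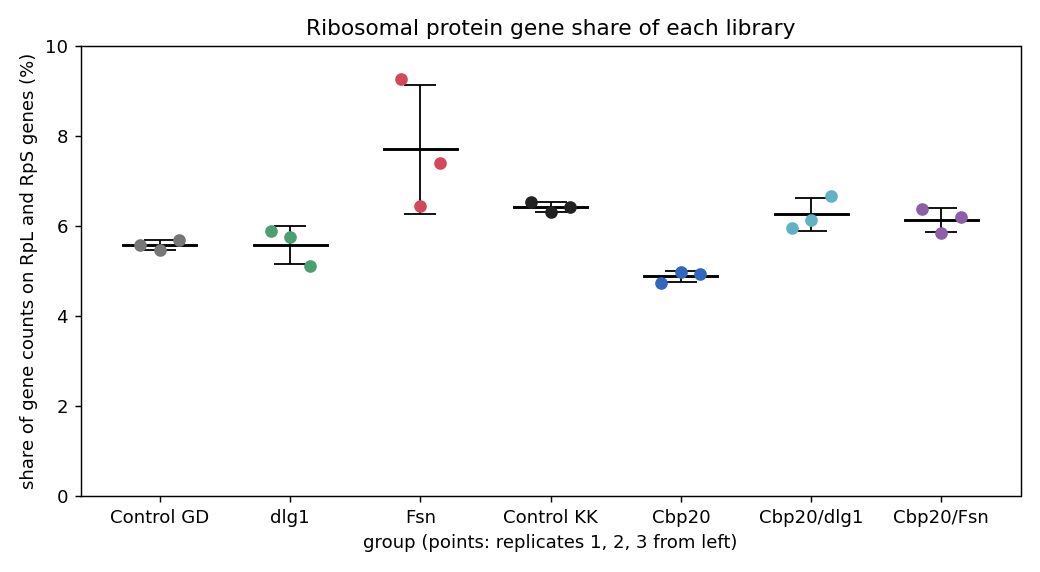
Share of gene counts on the RpL and RpS genes in each library, in percent, by group. Points are replicates 1, 2 and 3, the horizontal line is the mean and the bar the SD (n = 3). The 3 *Cbp20* libraries are the lowest group, and replicate 1 of *Fsn* is the highest library at 9.26%.

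Of the 87 members, 79 passed the filter on low counts and were tested, together with 10558 genes in all. The tested members had a median level of 766 CPM, against 24.4 CPM over all genes tested, and 76 members exceeded 100 CPM. Levels between genes were compared per kilobase of the longest annotated transcript. On that scale, *RpL41*, which encodes the smallest ribosomal protein, was highest at 2683 CPM per kb, followed by the stalk protein gene *RpLP1* at 1571 and by *RpS27A*, which encodes a fusion of ubiquitin with a 40S protein, at 1521. These 3 genes held the same ranks when merged exon length was used. The 76 abundant members spanned 182 to 2683 CPM per kb, with a median of 912. The 3 lowest of the members tested were *RpS5b* at 4.94, *RpLP0-like* at 17.4 and *RpS15Ab* at 33.8 CPM per kb.

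The 8 members that were not tested all carry a paralog name. *RpL10Aa* had no count in any library, which allows up to 0.104 to 0.169 CPM at 3 counts per library. *RpS28a* had 1 count and *RpL7-like* had 5 counts in total, and 1771 of the 1793 exon bases of *RpL7-like* are shared with another gene, so that its counts are uncertain. *RpL22-like*, *RpS28-like*, *RpS19b*, *RpL37-2* and *RpS10a* had between 14 and 77 counts over all libraries. Among families with both copies measured, the main copy made up 99.2% of the per-kb level for *RpS5a* and 95.6% for *RpS15Aa*. The second copy was more visible for *RpL34a*, at 20.9% of its family. *RpL24-like* and *RpLP0-like*, whose products act in ribosome assembly, share a family name with *RpL24* and *RpLP0*. *RpL24-like* made up 27.1% of the per-kb level under its name, and *RpLP0* 97.5% under its own. *RpS14a* and *RpS14b* are near-identical neighbours, so the split of 60.1% and 39.9% between them is uncertain.

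Among the 7 groups, 78 of the 79 members tested differed (quasi-likelihood F test of edgeR, false discovery rate, FDR, under 0.05), against 63.7% of all genes. *RpS15Ab* was the exception (FDR = 0.065). The study's own call, an absolute log2 fold change over 1 with FDR under 0.05, was met by no member in any comparison with a control. Of all genes, 1.96% met it with *dlg1* and 2.41% with *Fsn* knockdown, 3.24% with *Cbp20* knockdown, 2.03% and 3% in the *Cbp20/dlg1* and *Cbp20/Fsn* pairs, and 3.36% between the controls. Counts of members below use FDR under 0.05 (edgeR, Benjamini-Hochberg over all genes tested) with no fold threshold. Shares of all genes are given for the main comparisons only. Counts from alternative fits, or against the control of the other background, have none beside them.

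With *Fsn* knockdown, ribosomal protein genes rose together. Of the 79 members tested, 75 were higher than in Control GD and none was lower, against 20.3% of all genes higher and 17.9% lower. Their median log2 fold change was 0.50, a ratio of 1.41, while the median of all genes was 0.03. The medians of the 60S and 40S genes were 0.52 and 0.49. The groups did not overlap, with *Fsn* above, for 74 members, against 25.4% of all genes tested.

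The largest rise was that of *RpL35A*, a 60S gene. Its *Fsn* libraries read 975, 608 and 728 CPM and its Control GD libraries 416, 455 and 501 CPM, for a log2 fold change of 0.75 ± 0.127 (SE, n = 3, edgeR FDR = 0.000305). Replicate 1 was the highest *Fsn* library and replicate 2 the lowest, the order seen for most members. *RpS19a*, a 40S gene, was at 1044, 660 and 798 CPM against 474, 499 and 560 in Control GD (log2 fold change 0.71). *RpL13*, *RpL23A* and *RpS23* followed with log2 fold changes of 0.68, 0.66 and 0.62. Of the 1321 exon bases of *RpL23A*, 421 are shared with overlapping genes on the same strand. The stalk genes, whose proteins recruit translation factors to the ribosome, rose by 0.55 (*RpLP0*), 0.60 (*RpLP1*) and 0.56 (*RpLP2*).

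The 4 members that did not pass the test were *RpL38* (0.24, FDR = 0.0666), *RpL24-like* (0.15, FDR = 0.0997), *RpS15Ab* (0.04, FDR = 0.729) and *RpS5b* (−2.27, FDR = 0.117), by edgeR. The values of *RpS15Ab* were 26.6, 20.03 and 23.6 CPM after *Fsn* knockdown and 23.1, 22.9 and 22.5 in Control GD, so the groups overlapped. Its main copy *RpS15Aa* rose by 0.46. *RpLP0-like*, whose product acts in ribosome assembly, rose by 0.21.

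The size of the *Fsn* difference depended on 1 library and on the control. Without replicate 1 of *Fsn* the median was 0.33 with 72 members higher, and against Control KK it was 0.25 with 35 members higher. With only the *Fsn* and Control GD libraries in the model, 49 members were higher and 1 was lower. No share of all genes is given for these alternatives. Summed markers of some tissues also differed between these groups. The 5 neuronal markers were lower, at 3044 CPM in *Fsn* replicate 1 and 4002 to 4385 in the other *Fsn* libraries, against 4844 to 5167 in Control GD. The 6 head fat body markers were higher, at 46358 to 63968 against 23459 to 29132 CPM. The fat body markers were highest in *Fsn* replicate 3, whereas the members were highest in replicate 1. The neuronal markers were lowest in *Fsn* replicate 1 and highest in replicate 2, the reverse of the order of the members. In every group other than Control GD, the replicates ranked by neuronal markers were in reverse order of their share of counts on the members. None of these markers was at 0, and their part in the result was not tested.

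With *Cbp20* knockdown, the same family fell. Of the 79 members, 74 were lower than in Control KK and none was higher, against 14.6% of all genes lower and 7.02% higher. The median log2 fold change was −0.49, so that the median member was at 71.3% of its control level, and the median of all genes was 0.01. The 60S and 40S medians were −0.48 and −0.49. The *Cbp20* libraries lay below every Control KK library for 77 members, against 24.5% of all genes tested, and the 3 replicates were close to each other, with medians of −0.38, −0.32 and −0.34 relative to each gene's mean over all libraries.

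*RpS9* was at 613, 634 and 642 CPM with *Cbp20* knockdown and at 979, 932 and 962 CPM in Control KK, the largest fall (log2 fold change −0.60 ± 0.0958, SE, n = 3, edgeR FDR = 9.62e-05). An antisense RNA overlaps part of its exons, and the strand setting of the counting is not given in the sources used here. *RpS5a* was at 627, 636 and 628 CPM against 982, 927 and 953 (−0.60). *RpL41* and *RpS19a* fell by 0.59 and 0.58 on the log2 scale. The stalk genes *RpLP0*, *RpLP1* and *RpLP2* changed by −0.58, −0.49 and −0.47. Paralogs of an abundant pair fell alike, with −0.46 for *RpL34a* and −0.44 for *RpL34b*.

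Not past the threshold were *RpL22* (−0.33, FDR = 0.0643), *RpL38* (−0.27, FDR = 0.0657), *RpL24-like* (−0.18, FDR = 0.0754), *RpS15Ab* (−0.16, FDR = 0.209) and *RpS5b* (0.78, FDR = 0.604), by edgeR. All 74 members lower with *Cbp20* knockdown were among the 75 that were higher with *Fsn* knockdown (98.7% of the latter). *RpL22* was the remaining one. As nearly all members tested were called in each comparison, a large overlap was fixed in advance. The comparisons have no library in common but share the same fit and estimate of the spread.

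Against Control GD in place of Control KK, the median was −0.25 and 23 members were lower. The 5 neuronal markers summed to 5125 to 5419 CPM with *Cbp20* knockdown and to 4346 to 4543 in Control KK, and the 6 fat body markers to 16173 to 21031 against 40468 to 48358 CPM. Their part in the fall was not tested.

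With *dlg1* knockdown, no member passed the test in either direction, against 4.24% of all genes higher and 5.02% lower. The median log2 fold change was −0.01, and 1 member had an unadjusted p under 0.05. *RpS9*, as an example, was at 826, 796 and 701 CPM against 802, 772 and 814 in Control GD, and the groups overlapped. Members were lowest in replicate 3, whose median was −0.24 relative to each gene's own mean, against −0.02 and −0.08 in the other replicates. DESeq2 and every other normalization also called 0 members, but against Control KK 38 members were lower, with a median of −0.26. The share of all genes lower in that comparison is not given here.

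**Figure D2:**
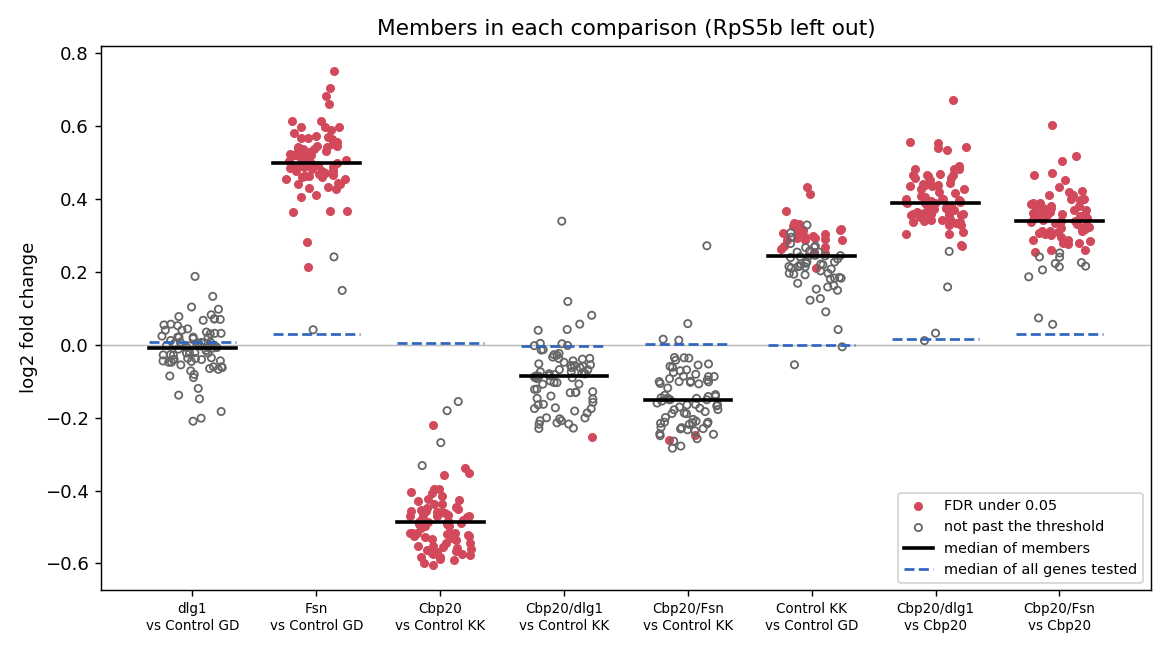
Log2 fold change of the 78 tested members other than *RpS5b* in each comparison. Filled points passed FDR under 0.05, the black line is the median of all 79 members and the dashed line that of all genes tested. Members sit near 0.50 for *Fsn*, near −0.49 for *Cbp20* and near −0.01 for *dlg1*.

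The controls themselves differed. Members were higher in Control KK than in Control GD, with a median log2 fold change of 0.25 and 29 of 79 past the threshold, against 11.8% of all genes higher and 9.12% lower. None was lower. Control KK lay wholly above Control GD for 75 members, against 24.9% of all genes tested. The fat body markers summed to 40468 to 48358 CPM in Control KK against 23459 to 29132 in Control GD, and the neuronal markers to 4346 to 4543 against 4844 to 5167. Their part in the difference was not tested. *RpS20* was at 658, 647 and 667 CPM in Control KK and at 480, 484 and 494 CPM in Control GD (log2 fold change 0.43 ± 0.114, SE, n = 3, edgeR FDR = 0.0096). *RpLP0*, *RpL11*, *RpL23* and *RpS27A* followed with 0.41, 0.37, 0.33 and 0.33. *RpL22* was an exception, at 307, 257 and 317 against 266, 287 and 331 CPM, which overlapped. The number past the threshold ranged from 5 to 15 when 1 library was left out, the fewest without Control GD replicate 2, and was 74 with only these groups in the model.

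In the pairwise knockdowns few members passed the test against Control KK. With *Cbp20/dlg1* knockdown, *RpLP0* alone was lower (807, 948 and 917 CPM against 1088, 1046 and 1051, log2 fold change −0.25, edgeR FDR = 0.0428) and none was higher, against 5.76% of all genes lower and 7.37% higher. The median was −0.09, and 40 members lay below every Control KK library, against 18.6% of all genes tested. With *Cbp20/Fsn* knockdown, *RpLP0* (903, 883 and 894 CPM, −0.25, FDR = 0.0398) and *RpS6*, the target of S6 kinase (1112, 1061 and 1063 CPM against 1320, 1264 and 1296, −0.26, FDR = 0.0493), were lower by edgeR and none was higher, against 8.45% lower and 8.63% higher. The median was −0.15, and 58 members lay below every Control KK library, against 21.6%. The call of *RpLP0* for *Cbp20/dlg1* held in only 1 of the 6 fits with a library left out, that without *Cbp20/dlg1* replicate 2, and both calls for *Cbp20/Fsn* held in none. Against Control GD the log2 fold changes were 0.16 and 0.17 for *RpLP0* and 0.044 for *RpS6*. With only the groups compared in the model, 6 members were lower and 1 higher for *Cbp20/dlg1*, and 36 lower and 1 higher for *Cbp20/Fsn*. Shares of all genes in these smaller fits are not given here. The medians against Control GD were 0.15 and 0.10.

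*RpL22*, a 60S gene, stood above Control KK in every library of both pairs, unlike most members. It was at 346, 386 and 382 CPM for *Cbp20/dlg1* and at 358, 369 and 337 CPM for *Cbp20/Fsn*, against 307, 257 and 317 CPM. The log2 fold changes of 0.34 and 0.27 did not pass the test (edgeR FDR = 0.0802 and 0.141). Of the 1100 exon bases of *RpL22*, 377 are shared with a long noncoding RNA gene on the same strand.

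Further comparisons, added after the data were seen, set the pairs against *Cbp20* knockdown alone. With *dlg1* knocked down as well, 74 of 79 members were higher than with *Cbp20* knockdown alone, against 18.6% of all genes, with a median log2 fold change of 0.39. With *Fsn* as the second gene, 67 were higher, against 17.4%, with a median of 0.34. *RpS5a* was at 627, 636 and 628 CPM with *Cbp20* alone, at 788, 851 and 885 with *dlg1* added and at 837, 778 and 830 with *Fsn* added, without overlap. The pairs also differ from *Cbp20* alone in carrying a second RNA interference line on a mixed GD and KK background, which cannot be told apart from the second target. The fat body markers summed to 32350 to 42807 CPM with *Cbp20/dlg1* and 29412 to 33378 with *Cbp20/Fsn* knockdown, against 16173 to 21031 with *Cbp20* alone, and the neuronal markers to 3836 to 4838 and 4083 to 4634 against 5125 to 5419. Their part was not tested.

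Each pair was also compared with the sum of its individual effects. For *Cbp20/dlg1*, 38 members were higher than the sum, against 12.5% of all genes, and the median difference was 0.40 on the log2 scale. The largest were those of *RpL41* (0.73) and *RpL39* (0.63), genes of very short 60S proteins. For *Cbp20/Fsn*, no member differed from the sum by edgeR, against 6.72% of all genes in either direction, and 3 had an unadjusted p under 0.05. The median was −0.17, but −0.02 without replicate 1 of *Fsn* and −0.29 without its replicate 2. Control KK cancels out of this difference, which rests on the pair, the individual knockdowns and Control GD. The mixed GD and KK background of the pairs enters it as well. The *Cbp20/dlg1* count fell to 15 without replicate 3 of *dlg1*, and the *Cbp20/Fsn* count rose to 18 lower without replicate 2 of *Fsn*.

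**Figure D3:**
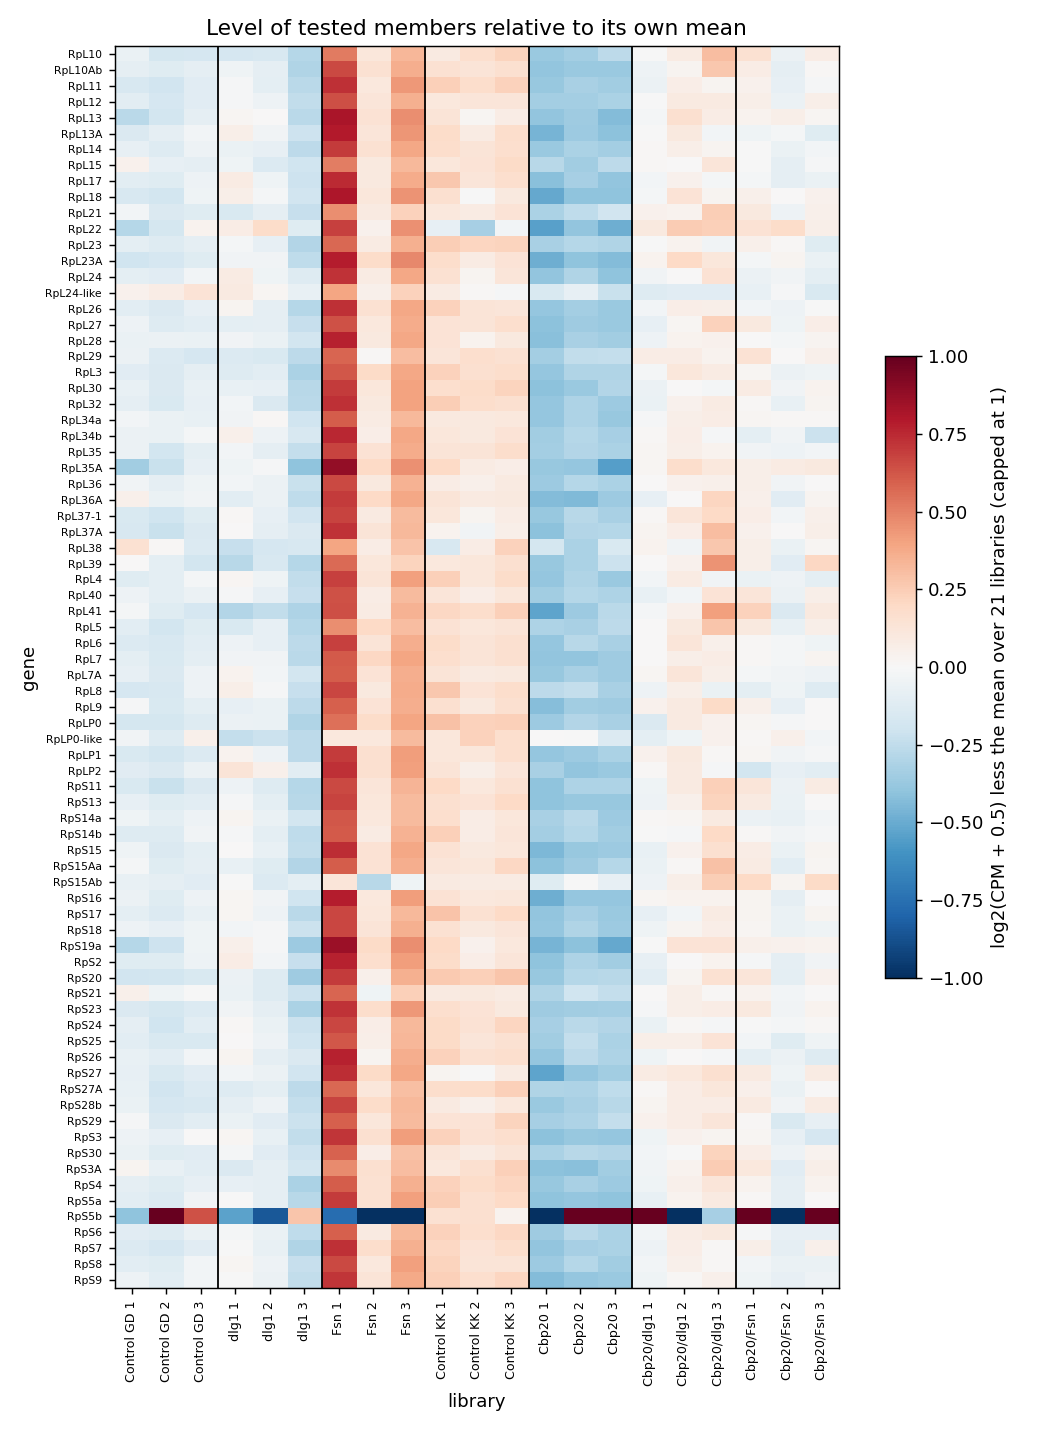
Level of 78 of the 79 tested members in each of the 21 libraries, as log2(CPM + 0.5) less the gene's mean over all libraries, with colours capped at 1. Nearly all rows share the same pattern, high in *Fsn* replicate 1 and low in the 3 *Cbp20* libraries, and *RpS5b* departs from it.

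*RpS5b*, the paralog of *RpS5a* expressed mainly in the germline, varied widely between replicates of most groups. It was at 15.8, 0.265 and 27.0 CPM in the *Cbp20/Fsn* libraries, at 0.263, 8.51 and 6.47 CPM with *Cbp20* knockdown, and at 6.01, 0.611 and 2.05 CPM with *Cbp20/dlg1* knockdown. In Control KK it was at 3.08, 3.10 and 2.80 CPM, in Control GD at 1.94, 7.12 and 4.49, and with *Fsn* knockdown at 1.39, 0.388 and 0.947. Its log2 fold changes of −2.27 ± 1.12 for *Fsn* and 2.26 ± 0.932 (SE, n = 3) for *Cbp20/Fsn* did not pass the test (edgeR FDR = 0.117 and 0.103), although all 3 *Fsn* libraries lay below Control GD and the gene was among those that differed over the 7 groups (FDR = 0.0371). The first passed with only the *Fsn* and Control GD libraries in the model (−2.27, edgeR FDR = 0.0324), and the second without *Cbp20/Fsn* replicate 2 (2.83, edgeR FDR = 0.011).

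Of the 8 germline markers matched, 6 were highest in replicate 3 of *Cbp20/Fsn*, as *RpS5b* was. *osk*, needed for germ plasm, was at 2.64, 0.0884 and 16.5 CPM in the *Cbp20/Fsn* libraries, and *otu*, needed in oogenesis, at 4.65, 0.354 and 12.01 CPM. In replicate 2 of *Cbp20*, however, *RpS5b* was at 8.51 CPM while *osk* was at 0.103 and *otu* at 0.789 CPM. All 8 summed to 56.3, 51.6 and 98.8 CPM there and to 29.7 to 69.8 in the other groups, most of it from *orb*, which is also expressed in the head, and 1 marker, *BicC*, was at 0 in every library. *orb* was highest in *dlg1* replicate 3 (59.3 against 52.6 CPM), and the 12 eggshell markers matched summed to 69.7 CPM there and to 4.2 CPM in *Cbp20/Fsn* replicate 3. Their part in the *RpS5b* levels was not tested.

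**Figure D4:**
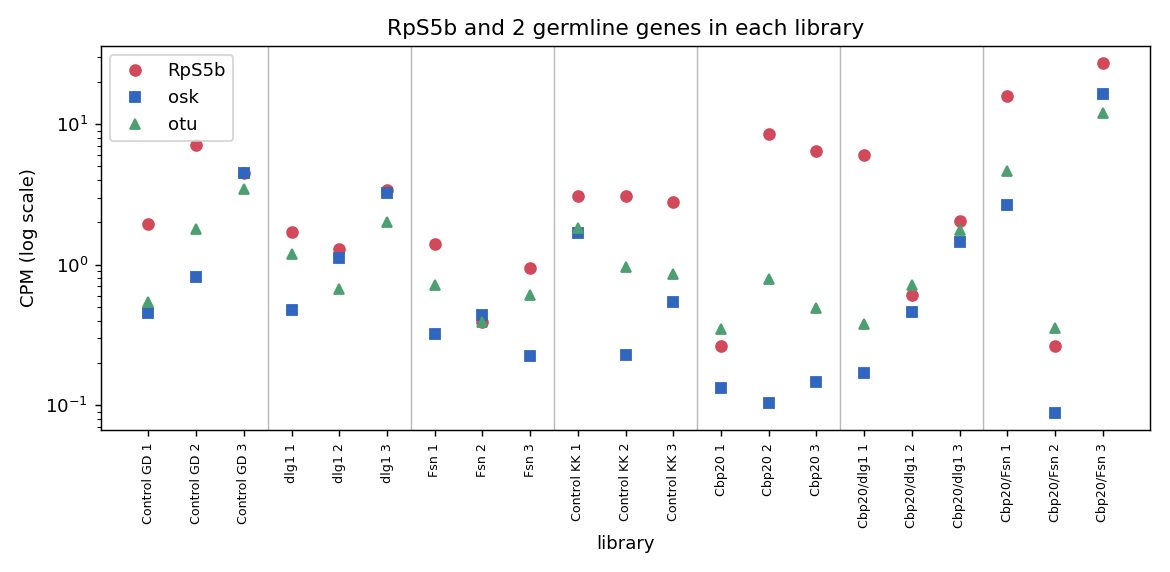
*RpS5b*, *osk* and *otu* in each library, in CPM on a log scale, where each point is a library. All of them are highest in replicate 3 of *Cbp20/Fsn*, at 27.0, 16.5 and 12.01 CPM.

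Other genes of the translation machinery were taken from lists and compared in the same fits. Of 33 translation factor genes tested, 19 rose with *Fsn* knockdown (median log2 fold change 0.20, against 20.3% of all genes) and 18 fell with *Cbp20* knockdown (median −0.23, against 14.6%), none moving the other way in either. *eEF1gamma*, a subunit of elongation factor 1, was among them in both, with 0.50 and −0.72 (0.18 and not past the threshold for *Fsn* against Control KK), and *eEF2*, the translocation factor, fell by 0.41 with *Cbp20* knockdown. Between the controls, 10 translation factor genes were higher and 1 lower in Control KK than in Control GD (median 0.10), against 11.8% and 9.12% of all genes. Of 25 ribosome biogenesis genes, 5 rose with *Fsn* knockdown, a share near the 20.3% of all genes, and 6 fell with *Cbp20* knockdown, against 14.6%. With *dlg1* knockdown 6 of these genes fell, against 5.02%, among them the snoRNP protein genes *nop5* (−0.66) and *Nop60B* (−0.52).

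Of 70 mitochondrial ribosomal protein genes tested, 32 rose and none fell with *Fsn* knockdown (median 0.24), against 20.3% and 17.9% of all genes. With *Cbp20* knockdown 1 rose and 2 fell, against 7.02% and 14.6%, and the median was −0.05. Between the controls, 12 were higher and 1 lower in Control KK than in Control GD (median 0.17), against 11.8% and 9.12%. Among 15 growth regulators, 1 rose and 5 fell with *Fsn* knockdown, against 20.3% of all genes higher and 17.9% lower. None rose and 5 fell with *Cbp20* knockdown, against 7.02% higher and 14.6% lower. *Myc*, a transcription factor that promotes ribosome production, was among the latter (−0.66), but its log2 fold change was −0.033 against Control GD (edgeR FDR = 0.889).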

How the data were processed

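Libraries were made from whole heads with a stranded mRNA kit. Per the labels and the methods of the study, the authors trimmed reads with Trimmomatic 0.36, aligned them with TopHat2 2.1.1 and counted them on genes with HTSeq 0.6.1. The authors deposited raw counts, 1 column per sequencing batch (2 or 3 per library). Batches were summed, and the HTSeq summary rows, which name no gene, were left out. Between 14.1% and 59.1% of the reads recorded per library were listed there as aligned to more than 1 place. Symbols were matched for 17253 of 17559 identifiers.

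Counts were analysed with edgeR 4.0.16 in R 4.3.3 (filterByExpr, TMM, quasi-likelihood test in its legacy form, 1 coefficient per group over 21 libraries). FDR values are Benjamini-Hochberg adjusted. Gene counts per library were 17712938 to 28759171, and 3 counts equal 0.104 to 0.169 CPM, a floor that covers counting error only. On simulated data for *Cbp20* against Control KK (10558 genes), 17 of 50 changes of 1.3-fold, 35 of 50 of 1.5-fold and 46 of 50 of 2-fold were recovered. The changed genes were drawn at random from all genes tested.

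The members and lists were chosen with earlier results of these data known. Genes named were up to 5 largest rises and falls per comparison past the threshold (mean of at least 5 CPM, groups not overlapping), paralogs, stalk genes, the 3 highest and lowest levels, and up to 3 genes per list. *RpL38*, *RpL39* and the use of *RpS9* and *RpS5a* as examples in other comparisons were chosen after their values were seen. Alternatives were RLE, library totals, TMM without the members, DESeq2 1.42.0, the edgeR 4 estimation, other filters, only the groups compared, a replicate block, an FDR threshold of 0.01, the first batch, the other control and each replicate left out. Promoter motifs were not analysed here. The values of 1 member that the rule would name are not reported here. Gene lengths and overlaps came from a later annotation release than the authors used. Figures used matplotlib 3.10.9.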

Additional observations from a re-analysis of the deposited data

Results flagged for a closer look

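The *Cbp20/dlg1* pair departed from the sum of its individual effects for 38 members, with a median difference of 0.40 on the log2 scale, by the test of that difference in edgeR. This comparison was added after the data were seen. With *dlg1* knockdown alone the median was −0.01, so the result nearly repeats that of the pair against *Cbp20* alone (median 0.39). The second RNA interference line and mixed background of the pair cannot be told apart from the second target. The count fell to 15 without replicate 3 of *dlg1* and to 7 at an FDR of 0.01.

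Reads aligned to more than 1 place, which no gene count includes, made up 29.7% to 59.1% of the reads recorded in the *dlg1* libraries, above the 19.9% to 26.1% of Control GD. No test was made of this difference.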

How the results depend on the processing

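The rise with *Fsn* and the fall with *Cbp20* knockdown kept the sign of their median under every alternative run, with 35 to 77 and 23 to 78 members called. Shares of all genes are not given for the counts in this section. Against the control of the other background, 38 members were called for *dlg1* (median −0.26), 35 for *Fsn*, 23 for *Cbp20* (median −0.25), 4 for *Cbp20/dlg1* (median 0.15) and 0 for *Cbp20/Fsn* (median 0.10). There *RpLP0* turned to 0.16 and 0.17 in the pairs, *RpS6* to 0.044, and *RpS15Ab* to −0.14 for *Fsn* and 0.028 for *Cbp20*. *RpS15Ab* for *Fsn* also changed sign with library totals (−0.0035), the first batch (−0.014) and, when 1 replicate was left out, ranged from −0.082 without *Fsn* replicate 1 to 0.144 without *Fsn* replicate 2. The cause was not tested.

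Library totals in place of TMM gave medians of −0.39 for *Cbp20*, −0.027 for *Cbp20/dlg1*, −0.058 for *Cbp20/Fsn* (1 member called) and 0.19 between the controls (7 called), while the median of all genes moved to 0.11 for *Cbp20*. With only the groups compared in the model, fewer samples set the spread, and 1 member was called for *dlg1*, 7 for *Cbp20/dlg1*, 37 for *Cbp20/Fsn* and 74 between the controls. With no low-count filter, 0, 0 and 16 were called for *Cbp20/dlg1*, *Cbp20/Fsn* and between the controls. For *Cbp20/dlg1*, RLE called 2 and the first batch 0. For *Cbp20/Fsn*, DESeq2 called 8, TMM without the members 0, and the edgeR 4 estimation and the first batch 1 each. At an FDR of 0.01, 0 were called in both pairs, 3 between the controls, 31 for *Cbp20/Fsn* against *Cbp20* and 7 for *Cbp20/dlg1* against the sum.

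Leaving out 1 replicate gave 0 to 1 members called in each pair, 5 to 15 between the controls, 43 to 65 for *Cbp20/Fsn* against *Cbp20*, 15 to 44 for *Cbp20/dlg1* against the sum and 0 to 18 for *Cbp20/Fsn* against the sum. The replicate block gave 75 members called for *Fsn*, 74 for *Cbp20*, 28 between the controls and 0 for *dlg1* and both pairs. Same-numbered libraries did not deviate together (mean r = −0.0048 over 63 pairs, −0.32 to 0.35), so the numbers were not taken to pair them. Without the 10 genes with most counts, mean shares were 5.42% to 8.97%. Depth limits the members under 3 counts. The simulated recovery at 1.3-fold limits small changes over all genes tested, whose median level was 24.4 CPM. Recovery was not measured for the members apart, whose median was 766 CPM.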
